A study of Homo sapiens with 52 samples.

Results

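The 37 genes described here encode the machinery that copies DNA, from the proteins that license replication origins to the enzymes that supply nucleotides and the factor that packs new DNA into chromatin. They were followed in H1 human embryonic stem cells, an established line, over 10 days in 5 µM retinoic acid, and in undifferentiated cells of the lines H9 and HUES8. The members were taken by gene symbol, and every probe set of the Affymetrix HG-U133 A and B chips annotated to a listed symbol alone was used, 66 probe sets in all. Of these, 59 passed the detection filter, a present call on at least 2 arrays out of 26, and stood for 36 of the 37 genes, among 12201 genes tested. CDC45, which activates the replicative helicase, had 1 probe set that was called present on no array and has no value below.

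The H1 groups were day 0, before treatment, and days 1 to 10 of differentiation, 11 groups in all. H9 and HUES8 were kept in the same medium, mTeSR on Matrigel-coated plates, without retinoic acid. Each of the 13 groups had 2 replicates that the labels call biological, each read on both chips, 52 arrays in total. No H1 culture without retinoic acid was sampled after day 0, so retinoic acid and time in culture cannot be told apart, and each line is 1 line of cells. The share of probe sets called present was 44.8% to 54.2% on the A chip and 31.1% to 40.1% on the B chip. All 9 markers of undifferentiated stem cells, among them NANOG, SOX2 and DNMT3B, were called present on at least 1 array of H1 day 0, of H9 and of HUES8. The values are from whole cultures, so fewer cells in S phase and less RNA per cell cannot be told apart.

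In a dividing cell, the origin recognition complex marks the sites where copying can start, and CDC6 and CDT1 load the ring-shaped MCM helicase there in G1 phase, while geminin (GMNN) blocks CDT1 once S phase has begun. MCM10, CDC45 and the GINS complex then switch the helicase on, DNA polymerases extend the strands behind a sliding clamp, PCNA, and ribonucleotide reductase supplies the deoxynucleotides. Many of these genes are transcribed under E2F factors, and embryonic stem cells, which have a short G1 phase, are known for high levels of replication proteins.

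E2F factors bind DNA at short motifs close to the start of their target genes. The letters TTTCGCGC, TTTGGCGC, TTTCCCGC and TTTGCCGC were searched on both strands in the 250 bases before the start of each gene, with overlapping matches each counted, in RefSeq promoters of the human build GRCh38.p14. Of the 37 members, 33 had a promoter in that table, and MCM4, MCM5, RPA2 and RPA3 had no entry. At least 1 of these motifs lay in 11 of the 33 (33.33%), against 2.79% of 27305 promoters in the table and 4.35% of the 9959 genes tested that had a promoter. Among members that fell by day 10, as described below, the motif lay in 6 of 17, and among measured members that did not pass the test it lay in 5 of 15. These counts were not tested against each other. The CCAAT box, spelled CCAAT and searched on both strands, lay in 20 of the 33 (60.61%). It lay in 33.04% of all promoters and in 35.57% of those of genes tested. The CHR element, TTTGAA, lay in 1 of 33 (3.03%), against 13.57% of all promoters and 9.17% of those of genes tested. A match describes the letters of a window and is not evidence that a factor binds there.

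The sequences below are the 250 bases before the start of the 4 members with the largest falls at day 10 among those that passed the test and hold such a motif, read 5′ to 3′ along the gene. They are shown because their RNA levels fell together late in the course. Capitals mark the E2F motifs, and GCGGGAAA is TTTCCCGC read on the opposite strand. CDT1 lies at chr16:88803539-88803788 on the plus strand, MCM7 at chr7:100101398-100101647 on the minus strand, MCM3 at chr6:52284743-52284992 on the minus strand and GINS2 at chr16:85688955-85689204 on the minus strand.
CDT1: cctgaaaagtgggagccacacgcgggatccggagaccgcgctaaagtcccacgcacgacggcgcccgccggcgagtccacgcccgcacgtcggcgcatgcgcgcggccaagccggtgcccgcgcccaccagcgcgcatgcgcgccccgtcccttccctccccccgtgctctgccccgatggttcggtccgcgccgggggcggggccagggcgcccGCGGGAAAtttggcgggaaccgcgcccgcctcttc
MCM7: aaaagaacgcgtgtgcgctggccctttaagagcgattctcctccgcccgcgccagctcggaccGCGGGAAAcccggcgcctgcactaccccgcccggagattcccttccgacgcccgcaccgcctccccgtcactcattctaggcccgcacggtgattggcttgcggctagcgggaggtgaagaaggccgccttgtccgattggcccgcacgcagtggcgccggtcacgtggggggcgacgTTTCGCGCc
MCM3: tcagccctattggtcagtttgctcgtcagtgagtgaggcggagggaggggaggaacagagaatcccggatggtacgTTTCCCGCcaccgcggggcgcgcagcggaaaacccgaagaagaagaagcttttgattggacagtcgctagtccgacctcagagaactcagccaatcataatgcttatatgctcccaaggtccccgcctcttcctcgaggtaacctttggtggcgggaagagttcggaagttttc
GINS2: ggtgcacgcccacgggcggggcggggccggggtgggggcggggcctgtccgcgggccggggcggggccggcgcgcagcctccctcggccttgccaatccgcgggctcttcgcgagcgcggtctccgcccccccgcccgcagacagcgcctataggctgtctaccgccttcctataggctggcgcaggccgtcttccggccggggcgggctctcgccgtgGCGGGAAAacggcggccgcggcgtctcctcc
In the CDT1 window the motif ends 28 bases before the start, and in the GINS2 window it ends 24 bases before. The MCM7 window holds 2 motifs, of which the nearer ends 2 bases before the start. In the MCM3 window the motif lies farther out, ending 167 bases before the start.

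Most replication genes that were called lower were first called so, and stayed so, in the last 2 days of the course. Against day 0, 20 of the 36 measured members were lower at day 10 (limma, adjusted p under 0.05), where 12.5% of all genes tested were lower. The median change of the members was -0.73 on the log2 scale, against 0.00 for all genes, and 33 of 36 changes were below 0. No member was higher at day 10, also at an unadjusted p under 0.05. At an adjusted p under 0.05, 1591 of the 12201 genes were higher, and 25.6% of all genes were called in either direction. The largest falls were those of CHAF1A, MCM5, RRM2, CDT1, RPA3 and CDC6, which span chromatin assembly, the helicase, nucleotide supply, licensing and single-strand binding. Changes here and below are differences of group means of log2 signal ± SE, with n = 2 samples per group. Each adjusted p of a gene is limma's, after Benjamini-Hochberg adjustment over the 12201 genes. Those of further probe sets are from a separate limma fit of every detected probe set named for 1 gene, adjusted over 21528 probe sets.

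The count at day 10 varied with the samples and the model. It was 10 of 36 without day 10 replicate 2 and 12 without day 0 replicate 2. The ratio of 3′ to 5′ signal of ACTB, a measure of RNA quality, is higher in shortened RNA. On the A chip it was 1.27 to 1.30 at day 0 and 1.89 and 1.45 in day 10 replicates 1 and 2. Replicate 2 had the lower median difference of the members from day 0, -0.86 against -0.59. The same ratio of GAPDH was 0.86 and 0.83 at day 0 and 0.79 and 0.82 at day 10 on that chip. With the ACTB ratio as a covariate 13 members were lower, 12 of the 20 and POLA1. In that fit the members' median at day 10 was -0.80, against -0.73 without the covariate, and 875 genes in all were lower, against 1527. The part of RNA quality in the calls was not tested. CHAF1A, MCM3, MCM5, MCM7, POLE2 and RRM2 were called lower in every fit tried, 6 of the 20.

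**Figure D1:**
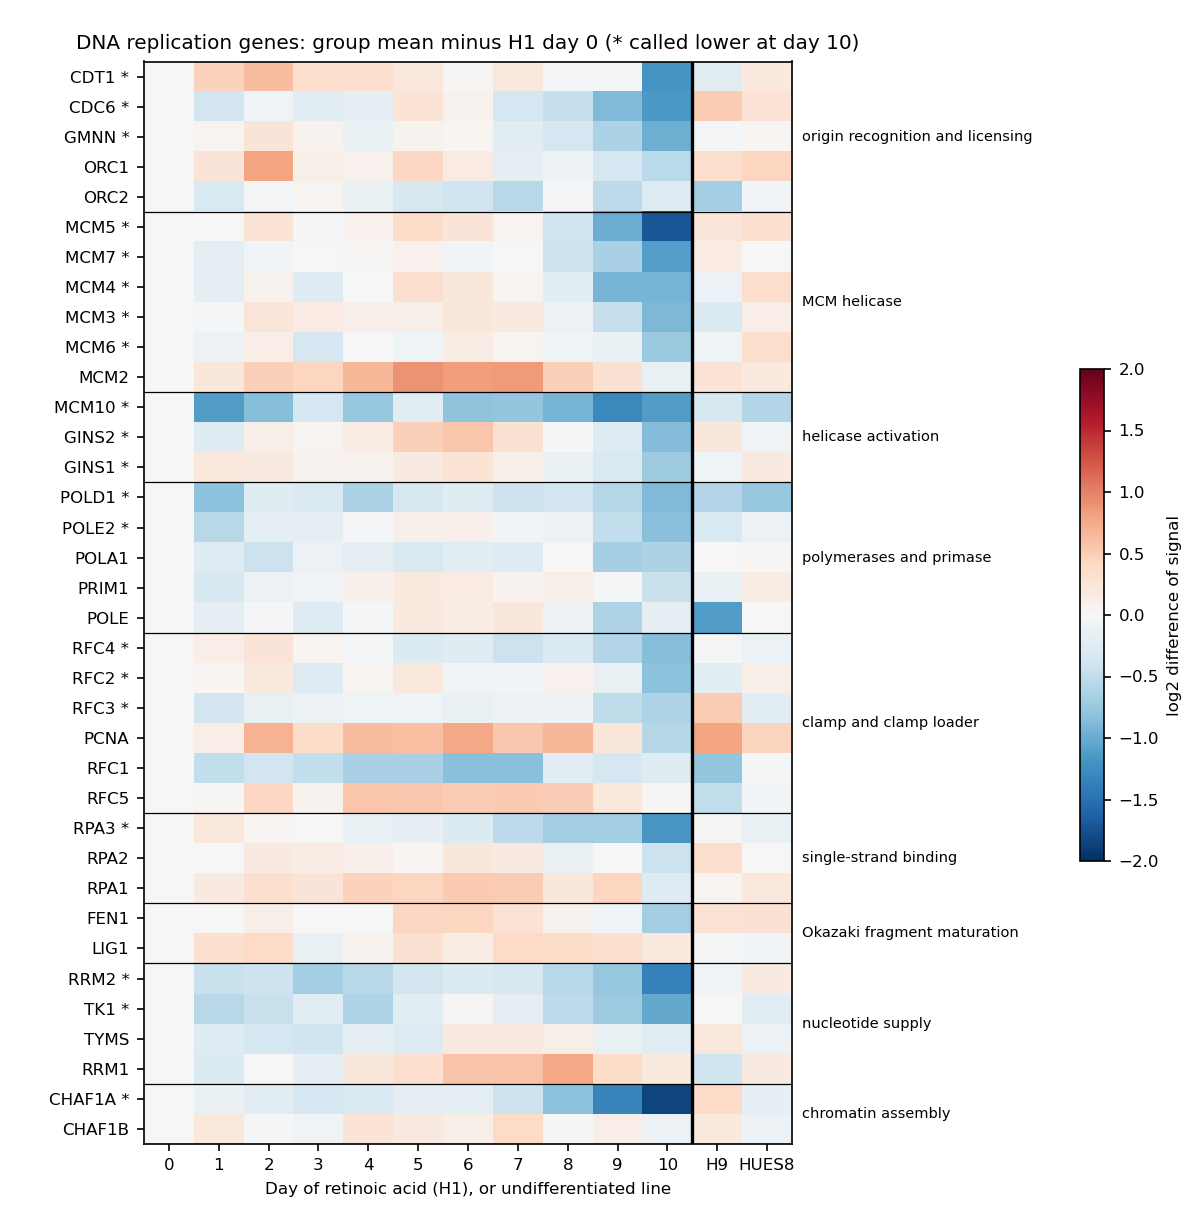
Group mean of log2 signal minus the H1 day 0 mean for the 36 measured DNA replication genes (rows, grouped by role) on each day of retinoic acid and in H9 and HUES8 (columns), with red for higher and blue for lower. The day 10 column is blue for 33 of 36 genes, and asterisks mark the 20 that passed the test there.

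The calls came late in the course. Members lower than day 0 numbered 0 on each of days 1 to 7 (limma), and at an unadjusted p under 0.05 they numbered 0 to 5. At an adjusted p under 0.05, 0.262%, 1.50%, 1.84%, 2.86%, 3.93%, 5.66% and 6.43% of all genes were lower on those days in turn. The share at an unadjusted p was not taken. At day 8, MCM10 and CHAF1A were lower, 2 of 36 against 6.69% of all genes. At day 9 the count was 10, against 9.06% of all genes, and at day 10 it was 20. The median change of the members was 0.14 on both day 5 and day 6, and then -0.11 on day 8, -0.40 on day 9 and -0.73 on day 10, while that of all genes stayed between -0.02 and 0.02. In single samples the median difference from the day 0 mean was -0.36 and -0.42 at day 9 and -0.59 and -0.86 at day 10. Both day 10 samples lay below every sample of the other days, and day 10 replicate 2 was the lower of the pair.

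The day 9 count was 3 without day 0 replicate 2 or without day 9 replicate 2. The day 8 count was 0 without day 0 replicate 1, without day 0 replicate 2 or without day 8 replicate 1. For each member the first day from which it was called lower on every later day was taken. It was day 8 for 2 members (1.11% of all genes), day 9 for 8 (2.64%) and day 10 for 10 (4.98%). The other 16 members had no such day. This is the day of a lasting call, and the signal could fall earlier. The adjustment was made within each day, and fewer genes were called lower on early days, so a change of the same size could pass late and not early. Both samples stayed below both day 0 samples from day 2 for 1 member, day 6 for 3, day 7 for 1 and day 8 for 5. They did so from day 9 for 10 and from day 10 for 7, and 9 members had no such day. The share of all genes was not taken for this measure. No member was called between days 9 and 10 or between days 8 and 9, and at an unadjusted p under 0.05 13 members were lower at day 10 than at day 9 and 5 were lower at day 9 than at day 8. For those 2 steps the share of all genes lower at an adjusted p under 0.05 was 0%. The share at an unadjusted p under 0.05 was not taken, so the counts of 13 and 5 have no share to be read against.

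Before day 8 the members' median moved to both sides of day 0. It was -0.13 on day 1, 0.05 on day 2, -0.07 on day 3 and 0.002 on day 4. On day 1, 9 members had both samples below both day 0 samples and 4 had both above. The median was 0.14 on days 5 and 6 and 0.05 on day 7. At day 5, 11 of 36 members had both samples above both day 0 samples and 6 had both below, and at day 6, 13 and 7 did. For these counts on days 1, 5 and 6 the share of all genes is not given, so they do not set the members apart. With the ACTB ratio as a covariate the members' median was 0.05 at day 5 and 0.02 at day 6, within 0.02 of the median of all genes in that fit. The highest day mean lay on days 4 to 7 for 20 of 36 members, against 23.0% of all genes, and the lowest lay at day 10 for 27 of 36, against 19.7%. Both replicates lay below both day 0 replicates for 27 of 36 members at day 10, against 31.7% of all genes. The rise passed the test for 1 member, MCM2, on each of days 4 to 7, where 4.93%, 6.34%, 8.07% and 9.01% of all genes were higher in turn. At day 8 the member that was higher was RRM1, against 9.60% of all genes. When arrays were centred on 100 control probe sets, the median of all genes shifted by -0.14 to -0.20 on days 1 to 5 and by 0.10 at day 10. On that scale the members' median was -0.01 at days 5 and 6, 0.12 and 0.09 above that of all genes, and -0.74 at day 10, 0.85 below it.

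**Figure D2:**
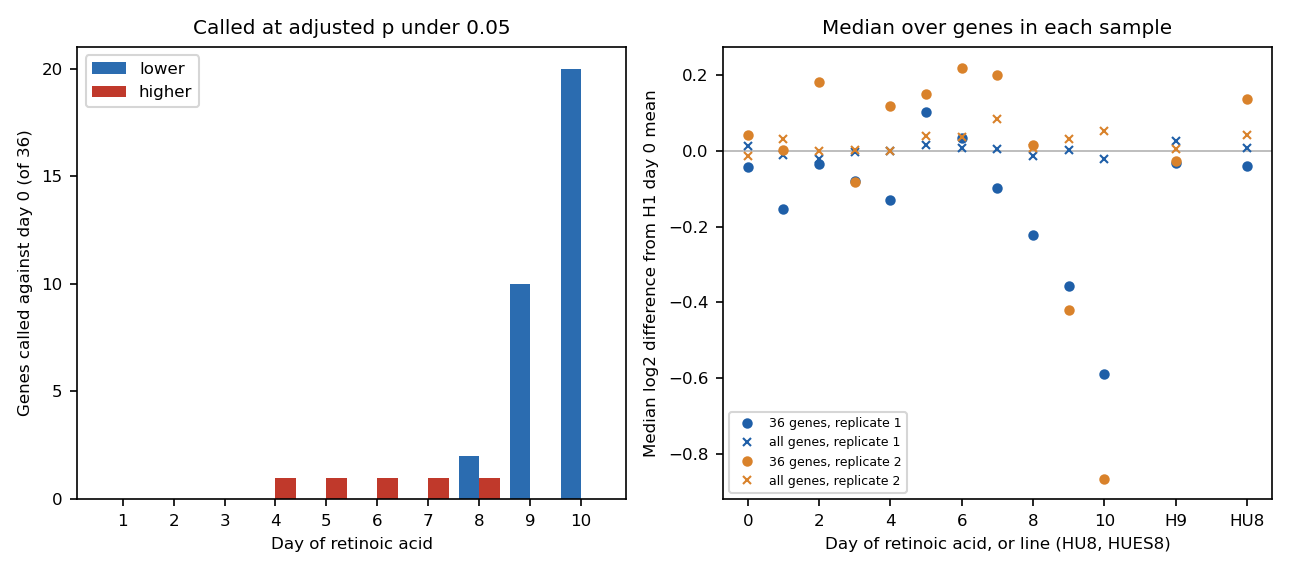
Left, the number of the 36 members called lower (blue) or higher (red) than day 0 on each day of retinoic acid. Right, the median over genes of the log2 difference from the H1 day 0 mean in each sample, for the members (circles) and for all genes tested (crosses), with replicate 1 in blue and replicate 2 in orange. The members' medians leave those of all genes at day 9, at -0.36 and -0.42, and at day 10, at -0.59 and -0.86.

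Over all 11 days, 20 of the 36 members differed in the F test, against 27.0% of all genes, and 13 did without day 10 replicate 2. A straight line through days 0 to 10 fell for 17 members, against 21.4% of all genes, and rose for RRM1, against 23.3%. The steepest lines were those of CHAF1A, -0.14 ± 0.02 per day (adjusted p = 1.11e-06), and MCM5, -0.13 ± 0.02 per day (adjusted p = 1.01e-06), each on the log2 scale. ORC1, the largest subunit of the origin recognition complex, fell along the line (-0.08 ± 0.02 per day, adjusted p = 0.0182), with a day 10 difference of -0.54 ± 0.37 that did not pass the test.

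Among the genes of origin recognition and licensing, CDT1, CDC6 and GMNN were lower at day 10, 3 of 5, with a median change of -0.98. CDT1, the loader of the MCM ring, had signals of 666 and 406 on day 0, 447 to 816 on days 1 to 9, 296 and 176 on day 10, 402 and 501 in H9 and 476 and 740 in HUES8. Both day 10 samples were the lowest of all 26, and the change was -1.19 ± 0.29, a 2.27-fold fall (adjusted p = 0.00536). Its day 9 signals were 510 and 502, between those of day 0, and the step from day 9 to day 10 was not called. Its B chip probe set, marked for cross-hybridisation, changed by -0.43 ± 0.37 at day 9 (adjusted p = 0.483) and by -0.88 ± 0.37 at day 10 (adjusted p = 0.0970).

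CDC6, the partner of CDT1, had signals of 451 and 659 on day 0, 320 and 275 on day 9 and 257 and 234 on day 10, a change of -1.15 ± 0.28 (adjusted p = 0.00415). A second probe set of CDC6 fell by 1.52 ± 0.39. GMNN, the inhibitor of CDT1, fell along with it, by 0.98 ± 0.25 (adjusted p = 0.00562). The origin recognition subunits ORC1 and ORC2 did not pass the test at day 10. ORC2 had the smallest change of the class, with signals of 1054 and 919 on day 0, 536 to 1211 on days 1 to 9, 903 and 750 on day 10, 632 and 603 in H9 and 929 and 960 in HUES8. Its change was -0.26 ± 0.26 (adjusted p = 0.513) on the B chip, while its A chip probe set, with signals of 777 and 761 at day 0 and 537 and 475 at day 10, fell by 0.61 ± 0.19 (adjusted p = 0.0237).

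Of the 6 subunits of the MCM helicase, 5 fell by day 10 and MCM2 did not pass the test. MCM5 fell most. Its signals were 2043 and 2107 on day 0, 2299 and 2736 on day 2, 2726 and 2627 on day 5, 1515 and 1653 on day 8, 1301 and 839 on day 9 and 794 and 510 on day 10. Every sample of days 8 to 10 lay below both day 0 samples, and both day 10 samples were the lowest of all. The change was -1.70 ± 0.23, a 3.26-fold fall (adjusted p = 1.5e-05), and it was called from day 9 on, at -0.99 ± 0.23 (adjusted p = 0.00380). H9 had 2355 and 2553 and HUES8 2390 and 2794, all above both day 0 samples. A dimmer probe set of MCM5, present on 22 arrays, read 531 and 664 at day 0 and 261 and 11.9 at day 10, so its change of -3.41 ± 0.74 rests largely on day 10 replicate 2.

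MCM7, MCM4, MCM3 and MCM6, which form the ring with MCM5 and MCM2, changed by -1.10 ± 0.19, -0.93 ± 0.23, -0.90 ± 0.19 and -0.75 ± 0.20, with adjusted p from 0.000252 to 0.0101. MCM7 and MCM4 were called lower from day 9 on, as MCM5 was, and MCM3 and MCM6 at day 10 only. At day 9 the further detected probe sets of these genes changed below 0 but were not called. Their adjusted p (limma) was 0.0734, 0.0822 and 0.115 for MCM4, 0.0949 for MCM7 and 0.494 for MCM5. At day 10 the 3 further detected probe sets of MCM4 changed by -1.02, -1.12 and -1.15 and that of MCM7 by -0.84, each with an adjusted p under 0.05. The B chip probe set of MCM6 changed by -0.31 ± 0.58 at day 10 (adjusted p = 0.765).

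MCM2 stood above its day 0 level in the middle of the course. Its signals were 2202 and 2422 on day 0, 2724 and 2688 on day 1, 2910 and 3568 on day 2, 3186 and 3046 on day 3, 3470 and 3870 on day 4 and 4396 and 4238 on day 5. They were 3644 and 4662 on day 6, 3583 and 4817 on day 7, 3023 and 3440 on day 8, 2808 and 2924 on day 9 and 2160 and 2020 on day 10. Every sample of days 1 to 9 lay above both day 0 samples, and both day 10 samples lay below them. The rise was 0.90 ± 0.17 at day 5 (adjusted p = 0.00117), and the day 10 difference was -0.14 ± 0.17 (adjusted p = 0.590). From its peak at day 5 to day 10 the mean dropped by 1.05. H9 had 2517 and 3073 and HUES8 2437 and 2888, above H1 day 0 and below H1 at day 5. The day 4 call was lost without day 0 replicate 1, day 0 replicate 2 or day 4 replicate 2, on the control-centred scale and with the ACTB ratio as a covariate, and the day 6 call without day 6 replicate 2.

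**Figure D3:**
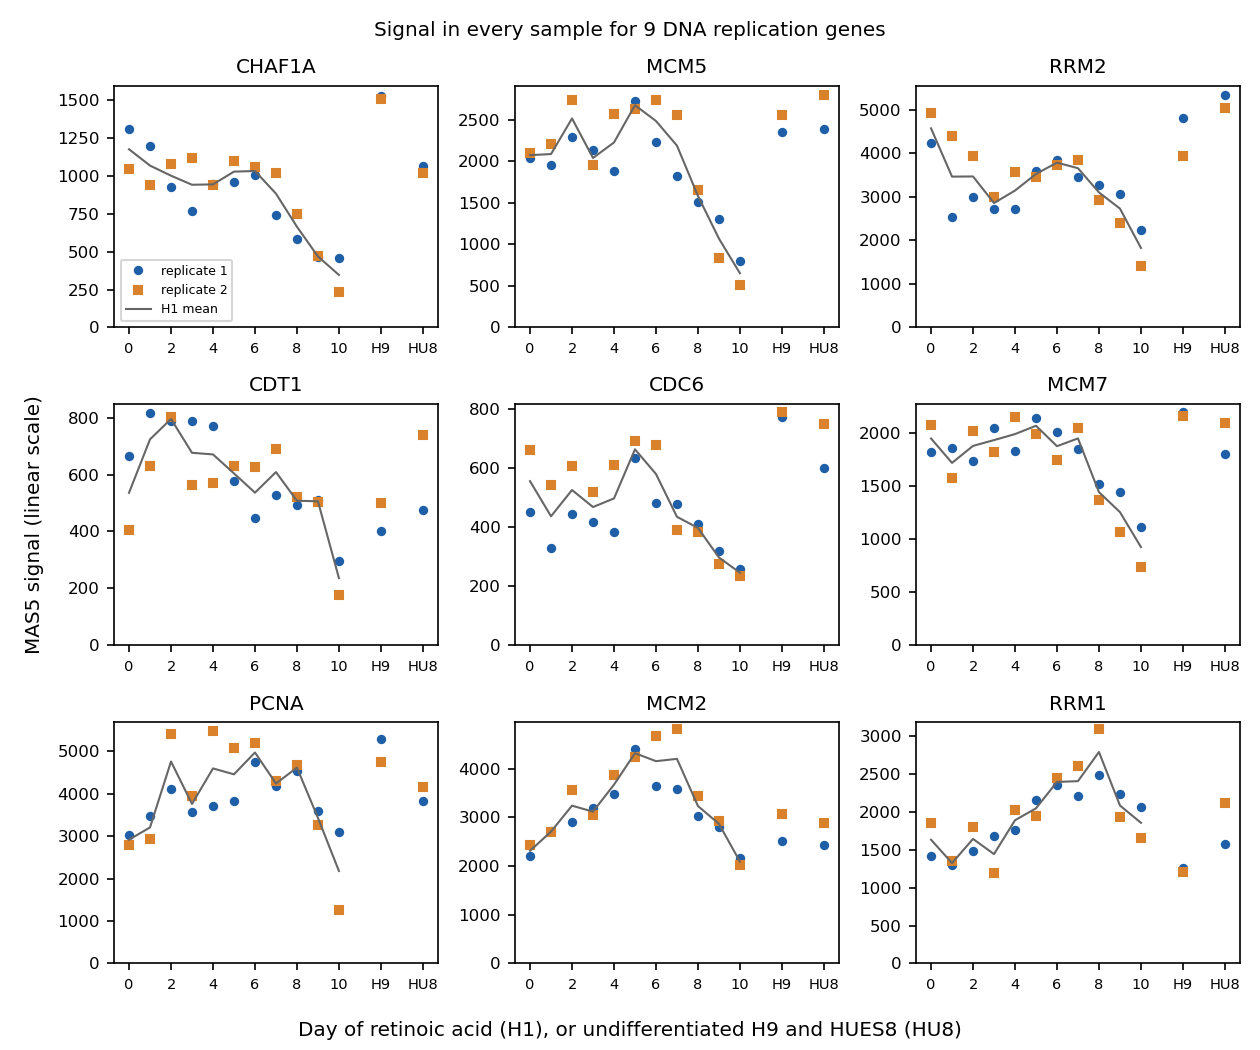
MAS5 signal on a linear scale, starting at 0, of 9 DNA replication genes in every sample, against day of retinoic acid for H1 and for undifferentiated H9 and HUES8 (HU8), with circles for replicate 1, squares for replicate 2 and a line through the H1 means. CHAF1A and MCM5 end lowest relative to day 0, MCM2 peaks at day 5, RRM1 peaks at day 8, and the PCNA replicates at day 10 stand at 3109 and 1250.

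All 3 measured genes of helicase activation were lower at day 10. MCM10, which helps turn the loaded helicase into a moving one, had signals of 1277 and 1095 on day 0, 388 to 1224 on days 1 to 9, 523 and 569 on day 10, 978 and 913 in H9 and 608 and 1018 in HUES8. Its day 1 samples, 447 and 663, lay on either side of those of day 10, with a mean of 555 against 546, but day 1 was not called. With 1 sample each of days 3 and 5 between the day 0 samples, the days did not fall in an even line. The change was -0.93 ± 0.31 at day 8 (adjusted p = 0.0405) and -1.12 ± 0.31 at day 10 (adjusted p = 0.00967). Its further probe sets changed at day 10 by -1.25 ± 0.31 (adjusted p = 0.00609) on the A chip and by -1.03 ± 0.43 (adjusted p = 0.0924) on the B chip, but at day 8 by -0.39 and -0.08, neither called.

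GINS1 and GINS2 are subunits of the GINS complex, which joins CDC45 and the MCM ring in the active helicase. GINS1 had signals of 2034 and 2053 on day 0, 1448 to 2766 on days 1 to 9, 1432 and 1086 on day 10, 2125 and 1747 in H9 and 2379 and 2258 in HUES8. Both day 10 samples were the lowest of all 26, and the change was -0.71 ± 0.21 (adjusted p = 0.0178). GINS2 peaked at day 6, at 1508 and 2244, and reached 726 and 651 on day 10 from 1175 and 1346 on day 0, a change of -0.87 ± 0.25 (adjusted p = 0.0127). A GINS2 probe set on the B chip, present on 4 arrays, read 21.03 and 63.3 at day 0 and 96.3 and 150 at day 10, a change of 1.72 ± 0.68 that did not pass the test (adjusted p = 0.0777). This dim probe set was called higher than day 0 at days 5, 8 and 9, by 2.72 ± 0.68, 2.40 ± 0.68 and 2.33 ± 0.68 (adjusted p = 0.0135, 0.0201 and 0.0204).

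Of the polymerases and primase, POLE2 and POLD1 were lower at day 10, 2 of 5, and the class median was -0.64. POLD1, the catalytic subunit of DNA polymerase delta, had signals of 617 and 450 on day 0, 195 to 538 on days 1 to 9, 255 and 320 on day 10, 343 and 356 in H9 and 298 and 328 in HUES8. Its samples at day 10 lay below both day 0 samples, as did both samples of H9 and of HUES8. The change of -0.88 ± 0.31 passed the test narrowly (adjusted p = 0.0437) and was lost in 6 of the 11 other settings and when any 1 of the 4 samples was left out. POLE2, the second subunit of polymerase epsilon, fell from 860 and 911 to 483 and 511, by 0.83 ± 0.18 (adjusted p = 0.00176).

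The catalytic subunit of polymerase epsilon, POLE, did not pass the test. Its signals were 233 and 282 on day 0, 124.2 to 442 on days 1 to 9, 256 and 195 on day 10, 105 and 132.7 in H9 and 228 and 292 in HUES8. The day 10 samples overlapped those of day 0 (-0.20 ± 0.33, adjusted p = 0.717), and both H9 samples were below every other sample but 1. The primase subunit PRIM1 and POLA1, its partner in the complex that starts new strands, changed by -0.45 ± 0.17 (adjusted p = 0.0576) and -0.64 ± 0.28 (adjusted p = 0.0995), neither called.

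Among the clamp and its loader, RFC4, RFC2 and RFC3 were lower at day 10, 3 of 6, with a median of -0.59. RFC4 had signals of 2678 and 2190 on day 0, 1528 to 3009 on days 1 to 9, 1779 and 1012 on day 10, 2368 and 2350 in H9 and 2175 and 2305 in HUES8. Both day 10 samples lay below day 0, but replicate 1, at 1779, was above both day 9 samples. The change was -0.85 ± 0.20 (adjusted p = 0.00390). RFC3 fell by 0.62 ± 0.16 (adjusted p = 0.00629), and its second probe set by 0.64 ± 0.20 (adjusted p = 0.0241). The brightest probe set of RFC2 was called present on 1 of 2 arrays at day 0 and on neither at day 10, so its signal was at least 1.77-fold lower (adjusted p = 0.0326). A second RFC2 probe set was called present on all 26 arrays, with signals of 465 and 742 on day 0 and 284 and 294 on day 10, so RFC2 was still detected there. It changed by -1.02 ± 0.37 (adjusted p = 0.0534).

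RFC5, another loader subunit, did not pass the test. It had signals of 680 and 571 on day 0, 477 to 1063 on days 1 to 9, 707 and 565 on day 10, 482 and 410 in H9 and 572 and 625 in HUES8, and its day 10 samples overlapped those of day 0. The change was 0.02 ± 0.23 (adjusted p = 0.964), and its 2 further probe sets changed by -0.28 and -0.38, not called. RFC1, the large subunit of the loader, changed by -0.24 ± 0.39 (adjusted p = 0.708), and its further detected probe set, marked for cross-hybridisation, by -0.98 ± 0.36 (adjusted p = 0.0534).

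PCNA, the sliding clamp and a common marker of proliferating cells, did not pass the test at day 10. Its signals were 3038 and 2798 on day 0, 4741 and 5206 on day 6, 3600 and 3263 on day 9 and 3109 and 1250 on day 10. The day 10 replicates lay on opposite sides of day 0, and the change was -0.56 ± 0.28 (adjusted p = 0.149). Without day 10 replicate 2 the change was 0.09. The 2 lines differed from H1 in mean signal for PCNA, at 5297 and 4756 in H9 and 3826 and 4153 in HUES8, all above both day 0 samples, and neither difference passed the test.

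Of the 3 subunits of RPA, which coats single-stranded DNA, the smallest, RPA3, was lower at day 10. Its signals were 4730 and 4622 on day 0, 3411 and 4390 on day 6, 2690 and 3937 on day 7, 2677 and 3141 on day 8, 2570 and 3325 on day 9 and 2073 and 2113 on day 10. H9 had 4960 and 4580 and HUES8 4172 and 4248. Every RPA3 sample from day 6 on lay below both day 0 samples, and the day 10 change was -1.16 ± 0.24 (adjusted p = 0.00121), or -0.95 (adjusted p = 0.0617) with the ACTB ratio as a covariate. RPA1, the large subunit, had 2018 and 2820 on day 0, 2437 to 4043 on days 1 to 9, 2111 and 1885 on day 10, 2438 and 2493 in H9 and 2703 and 2851 in HUES8. Its day 10 samples overlapped those of day 0, and the change was -0.26 ± 0.23 (adjusted p = 0.449). The second RPA1 probe set changed by -0.17, and RPA2, the middle subunit, by -0.43 ± 0.25, neither called.

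Neither gene of Okazaki fragment maturation passed the test with its brightest probe set. FEN1, the flap nuclease that trims the fragments, had signals of 1218 and 1154 on day 0, 913 to 1820 on days 1 to 9, 886 and 615 on day 10, 1422 and 1485 in H9 and 1292 and 1665 in HUES8. Both of its day 10 samples were the lowest of all 26, and the change was -0.68 ± 0.28 (adjusted p = 0.0784). Its second probe set, with signals of 923 and 1301 at day 0 and 719 and 500 at day 10, was called lower, at -0.87 ± 0.26 (adjusted p = 0.0228). LIG1, the ligase that joins the fragments, had 451 and 417 on day 0, 364 to 639 on days 1 to 9, 527 and 465 on day 10, 431 and 423 in H9 and 323 and 545 in HUES8. Both of its day 10 samples were above day 0, and the change was 0.19 ± 0.23 (adjusted p = 0.606).

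In nucleotide supply, RRM2 and TK1 were lower at day 10 and RRM1 and TYMS did not pass the test. RRM2, the small subunit of ribonucleotide reductase, had signals of 4234 and 4916 on day 0, 2716 and 3002 on day 3, 3846 and 3728 on day 6, 3281 and 2924 on day 8, 3058 and 2404 on day 9 and 2237 and 1417 on day 10. Every sample of this, the brightest probe set, from day 2 on lay below both day 0 samples. The change was -1.36 ± 0.24, a 2.56-fold fall (adjusted p = 0.000235), against 4817 and 3949 in H9 and 5351 and 5036 in HUES8. A second RRM2 probe set, present on all 26 arrays, had signals of 1645 and 2457 on day 0, 2656 and 2708 on day 6 and 1826 and 828 on day 10, with both day 6 samples above both day 0 samples. It changed by 0.31 ± 0.27 at day 8 (adjusted p = 0.520) and by -0.71 ± 0.27 at day 10 (adjusted p = 0.0652), and its line over the days, 0.03 ± 0.02 per day, was not called (adjusted p = 0.239).

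RRM1, the large subunit of the same enzyme, was higher late in the course. Its signals were 1420 and 1849 on day 0, 1302 and 1349 on day 1, 1488 and 1802 on day 2, 1689 and 1200 on day 3, 1759 and 2024 on day 4 and 2154 and 1944 on day 5. They were 2351 and 2444 on day 6, 2207 and 2609 on day 7, 2492 and 3095 on day 8, 2237 and 1936 on day 9 and 2063 and 1654 on day 10. From day 5 to day 9 every sample lay above both day 0 samples, and the day 8 rise was 0.78 ± 0.20 (adjusted p = 0.00970). The day 10 difference was 0.19 ± 0.20 (adjusted p = 0.544). The day 8 call was lost without day 0 replicate 1 or day 8 replicate 2, on the control-centred scale and with the ACTB ratio as a covariate. The second RRM1 probe set changed by 0.25 ± 0.16 at day 8 (adjusted p = 0.370) and rose along the days, by 0.03 ± 0.01 per day (adjusted p = 0.0206). H9 had 1258 and 1205, below every H1 sample but 1, and HUES8 had 1580 and 2122.

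TK1, a thymidine kinase of the salvage pathway, fell by 1.03 ± 0.24 (adjusted p = 0.00362), from 483 and 614 to 320 and 222. TYMS, which makes thymidylate, had 5238 and 5551 on day 0 and 6678 and 3250 on day 10, replicates on opposite sides of day 0. Its change was -0.21 ± 0.26 (adjusted p = 0.603), and 0.31 without day 10 replicate 2.

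CHAF1A, the large subunit of the chromatin assembly factor that places histones on new DNA, had the largest fall of all members. Its signals were 1309 and 1042 on day 0, 1198 and 938 on day 1, 926 and 1076 on day 2, 768 and 1115 on day 3, 944 and 943 on day 4 and 960 and 1096 on day 5. They were 1003 and 1061 on day 6, 744 and 1022 on day 7, 581 and 748 on day 8, 466 and 471 on day 9 and 457 and 235 on day 10. From day 7 on every sample lay below both day 0 samples, and H9 with 1528 and 1509 and HUES8 with 1068 and 1018 stood near or above day 0. The change was -0.83 ± 0.26 at day 8 (adjusted p = 0.0311), -1.32 ± 0.26 at day 9 (adjusted p = 0.000819) and -1.83 ± 0.26 at day 10, a 3.56-fold fall (adjusted p = 2.27e-05). Its 2 further detected probe sets fell at day 10, with changes of -2.30 ± 0.44 and -1.15 ± 0.19. CHAF1B, the middle subunit, was called present on neither array at day 0 and at day 10, so no fold is given, with signals of 301 and 408 on day 0, 298 to 489 on days 1 to 9, 375 and 280 on day 10, 343 and 472 in H9 and 340 and 310 in HUES8.

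Where a member had several detected probe sets, they mostly moved the same way at day 10. There were 23 further detected probe sets, of which 22 changed below 0 and 1, for GINS2, above 0, and 12 were called lower and 0 higher. Of the 18 genes with several detected probe sets, 15 had all of them on the same side of 0. FEN1 and ORC2 were called only by a dimmer probe set, and RRM2, CDT1, GINS2, RFC2, MCM6 and a second B chip set of MCM10 are cases where a further probe set was not called beside a called one. At day 9 the further probe sets of CDC6 (limma, adjusted p = 0.206), RFC3 (0.0594), RRM2 (0.643) and MCM10 (0.0946 and 0.621) were not called. Those of CHAF1A were called lower there (0.0419 and 0.0125), as was that of ORC2, at -0.62 ± 0.19 (0.0253). That of GINS2 was called higher there, at 2.33 ± 0.68 (0.0204). The further probe set of RFC1, marked for cross-hybridisation, was called lower at day 5, at -1.25 ± 0.36 (adjusted p = 0.0308), and not at day 8, 9 or 10. The 7 probe sets that were not detected, for CDC45, CHAF1A, MCM4, RFC1, RFC3, RPA1 and TYMS, were not tested.

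**Figure D4:**
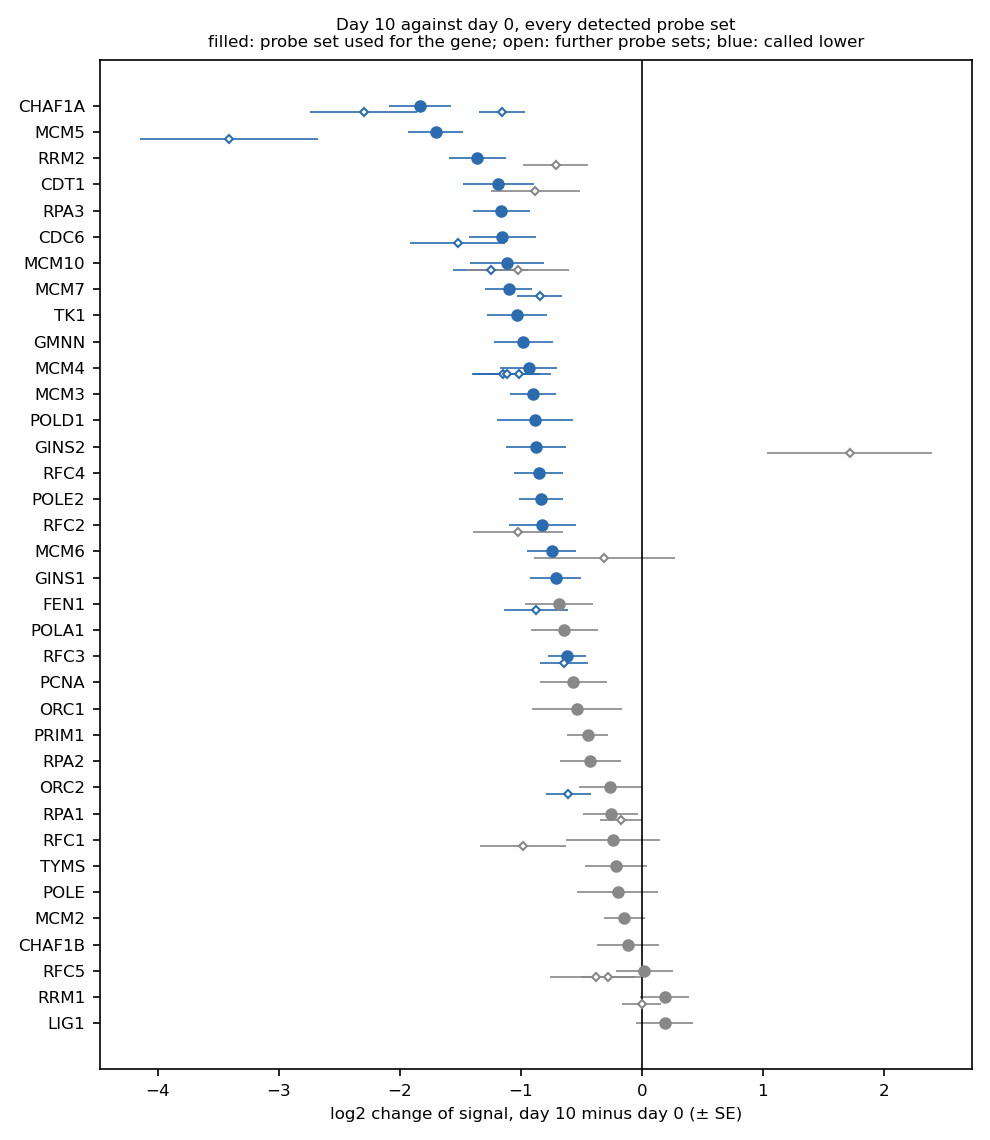
Change of log2 signal from day 0 to day 10 ± SE for every detected probe set of the 36 genes, ordered by the probe set used for the gene (filled circles), with further probe sets as open diamonds and called falls in blue. All but 1 of the 23 further probe sets lie left of 0, the exception being that of GINS2 at 1.72.

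Day 10 cells were also set against the undifferentiated lines. Against H9, 21 members were lower, where 17.0% of all genes were, and POLE and RRM1 were higher, where 17.4% were. Against HUES8, 20 members were lower (14.4% of all genes) and 0 were higher (14.1%), also at an unadjusted p under 0.05. Taking the weakest of the comparisons with H1 day 0, H9 and HUES8, 14 members were lower than in all 3, against 7.57% of all genes. These were CDC6, CDT1, GMNN, the 5 MCM subunits other than MCM2, GINS2, RFC4, RPA3, RRM2, TK1 and CHAF1A. The 3 comparisons share the day 10 samples. The count was 5 without day 10 replicate 2, 7 without day 0 replicate 2, 8 without H9 replicate 2, 9 without HUES8 replicate 2, 9 on the control-centred scale and 6 with the ACTB ratio as a covariate.

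Few differences between the 3 undifferentiated lines were called in these genes. Between H9 and H1 day 0 no member was called (limma), against 4.64% of all genes, and 5 had an unadjusted p under 0.05. The largest difference was that of POLE (H9 minus H1 day 0, -1.12 ± 0.33, adjusted p = 0.0583), with signals of 105 and 132.7 against 233 and 282. Between HUES8 and H1 day 0 no member was called, against 0.197% of all genes, and only POLD1 had an unadjusted p under 0.05 (-0.75 ± 0.31, adjusted p = 0.528). Between HUES8 and H9, RFC3 was called, 1 of 36 against 2.61% of all genes, and 7 members had an unadjusted p under 0.05. RFC3 had 2275 and 2180 in H9, 1327 and 1410 in HUES8 and 1578 and 1572 in H1 at day 0, with 1039 to 1619 on days 1 to 9 and 1062 and 990 on day 10. Both H9 samples were the highest of all 26, and HUES8 was lower than H9 by 0.70 ± 0.16 (adjusted p = 0.0164), with a second RFC3 probe set lower by 0.75 ± 0.20 (adjusted p = 0.0490). The RFC3 call was lost on the control-centred scale and when any 1 of the 4 samples was left out. The comparisons of H9 and of HUES8 with H1 share the day 0 samples. The shares of all genes are at an adjusted p under 0.05, and none was taken at an unadjusted p.

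The other genes of replication, taken as lists with no member in common with the 36, are given by counts at day 10, to be read against the 12.5% of all genes that were lower and the 1591 of 12201 that were higher there. Of 30 measured genes of forks and origins beyond the members, 7 were lower and 0 higher, with a median of -0.40. The largest of these falls were those of DTL (-1.40 ± 0.25), which helps destroy CDT1 in S phase, WDHD1 (-1.32 ± 0.37), which links polymerase alpha to the helicase, and DSCC1 (-1.31 ± 0.23), a subunit of an alternative clamp loader. Of 11 further genes of nucleotide supply, 6 were lower and 0 higher, with a median of -0.78, led by RRM2B (-1.83 ± 0.29), a second small subunit of ribonucleotide reductase, CTPS1 (-0.999 ± 0.21), which makes cytidine triphosphate, and CAD (-0.91 ± 0.18), which starts pyrimidine synthesis.

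Of 18 genes of E2F and G1/S control, 4 were lower and 2 higher, with a median of -0.21, the higher count being near the share of all genes. CDC25A, a phosphatase that activates S phase kinases, was called present at day 0 and not at day 10 with a level at least 2.33-fold lower (adjusted p = 0.0360). The cyclins CCNE1 and CCNA2 fell, with changes of -1.03 ± 0.23 and -1.03 ± 0.18. Of 8 genes of histone supply and chaperones, 3 were lower and 1 higher. NASP, a histone chaperone, fell by 1.11 ± 0.22 and HAT1, which acetylates new histones, by 0.92 ± 0.29, while SLBP, which binds the stem-loop of histone messenger RNA, rose by 1.46 ± 0.19 (adjusted p = 9.94e-06). Most genes in the list of repair polymerases and ligases fill gaps or bypass damage and do not copy the bulk of the genome. Of 9 measured, 0 were lower and 1 was higher, which is also near that share. The higher gene was REV3L, the catalytic subunit of polymerase zeta, by 1.83 ± 0.50 (adjusted p = 0.0107).

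The mitosis genes, the list most like the members, fell as well: 11 of 20 were lower and 0 higher, with a median of -0.92 against -0.73 for the members. PLK1 and AURKB, both mitotic kinases, and CDK1, the kinase that drives entry into mitosis, fell, with changes of -1.44 ± 0.31, -1.21 ± 0.18 and -1.23 ± 0.25 in turn. At day 6 the mitosis median was -0.43 and that of the members 0.14, with 1 of 20 mitosis genes and 0 of 36 members lower. The difference between the lists was not tested. Of 5 measured CDK inhibitors, which hold the cell cycle in check, 4 were higher and 0 lower. CDKN2B and CDKN2A were called present at day 10 and not at day 0, and were at least 57.5-fold and at least 6.14-fold higher, and CDKN1C rose by 1.02 ± 0.29.

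**Figure D5:**
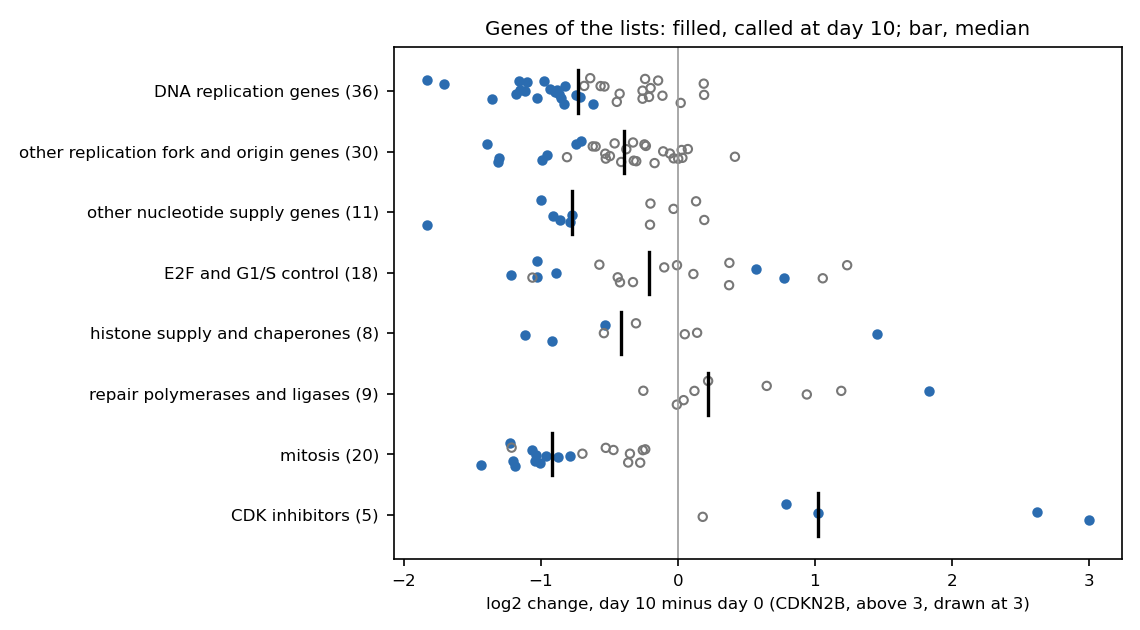
Change of log2 signal from day 0 to day 10 of each measured gene of the DNA replication genes and of 7 other lists (rows, with the number of genes), filled where called, with a bar at the median. The medians of the members and of mitosis lie at -0.73 and -0.92 and that of the CDK inhibitors at 1.02.

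Markers of cell identity had changed by day 6. The summed signal of the 9 stem cell markers lay between 121528 and 122371 before treatment, between 51332 and 65717 on day 6 and between 20274 and 20305 on day 10, with 6 of 9 lower at day 6 and 9 of 9 at day 10. At day 10 NANOG and PRDM14 were called present on neither array. All 8 markers of simple epithelium were higher at day 6 and at day 10, and their sums went from 20624 and 21314 before treatment to 68403 and 81454 on day 6 and 84281 and 85377 on day 10. Of 6 measured trophoblast markers, 6 were higher at day 10, with sums of 191 to 355 at day 0 and 5471 to 6334 at day 10, and MUC15, GATA3 and VGLL1 were among the 5 called present on neither day 0 array.

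The remaining marker lists moved in part. Of the measured markers, 4 of 5 for neural crest were higher and 1 was lower, with sums of 432 to 526 at day 0 and 4307 to 7927 at day 10. Endoderm had 3 of 6 higher, with sums of 497 to 544 and 2779 to 4472 and SOX17 called present on neither day 10 array. Mesenchyme and fibroblast had 3 of 8 higher and 2 lower, with sums of 9988 to 11696 and 21941 to 28715. Neural markers had 1 of 6 higher and 2 lower, with sums of 21572 to 24267 and 3954 to 4163 and STMN2 called present on neither day 10 array. The part of this change in cell identity in the levels of the replication genes was not tested.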

How the data were processed

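The deposited intensity is a signal on a linear scale that the authors made with MAS5, per the submitters' processing notes. The version is not given in the sources used here. The deposited signals had a mean of 500.172 to 500.255 per array without the top and bottom 2%, so the arrays had been scaled alike. The deposited table pairs each signal with a detection p-value made by the authors' software, per the file headers, and a probe set was called present when it was under 0.05 and absent from 0.065. Signals were taken as log2 with no further scaling. Probe sets were named from the array annotation where it gave 1 gene. For each gene the brightest probe set was used, those marked for cross-hybridisation last, if present on at least 2 of 26 arrays.

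Each chip was fitted with limma 3.58.1 in R 4.3.3, with 1 mean per group, an intensity trend and 13 residual degrees of freedom. Two-sided p-values of each comparison went through Benjamini-Hochberg adjustment over the 12201 genes of both chips, and calls were made under 0.05. Further probe sets were fitted in the same way among all 21528 detected probe sets and adjusted over these. The number of arrays limits the precision. Where a gene was present in 1 group and on no array of the other, its fold is a bound, "at least N-fold". It compares the brighter group's mean with the dim group's signals, raised where needed to the lowest signal called present on their array. Per-sample values are given for the members with the lowest and the highest day 10 change in each role and for those called between lines. A few others, such as CDC6 and PCNA, were added after their values were seen. From each other list up to 3 called genes with the largest day 10 change are named. The members and lists were chosen with earlier results of these data known. Alternatives changed the scaling, filter, probe set rule, model or samples.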

Additional observations from a re-analysis of the deposited data

How the results depend on the processing

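Counts of members called were recomputed under each alternative. With 2 samples per group, leaving out 1 leaves a lone sample that is assumed to vary like the other groups. The labels do not say that a replicate number marks a shared batch, and over 78 pairs of groups the correlation of deviations was -0.07 to 0.31, median 0.05, and over 0.1 in 26, so the numbers were not taken to pair the samples. Single probe sets did follow the number: that of RFC1 used here was higher in replicate 1 on each of days 1 to 10, and the second of RFC2 in replicate 2 on each of days 0 to 10. The members' median was higher in replicate 2 on days 0 to 2 and 4 to 8, for example 0.20 against -0.10 on day 7. On days 3, 9 and 10 it was lower in replicate 2. With the replicate block, members lower numbered 1 on day 1, 1 on day 6, 2 on day 7, 15 on day 9 and 23 on day 10 (the 20 and FEN1, POLA1 and PRIM1), members higher 3 on day 6, 3 on day 7 and 2 on day 8, and 2 members differed between H9 and H1 day 0. Centred on control probe sets, 1 member was lower at day 3 and 1 at day 7, none (0) was higher at days 4 and 8, 9 were lower at day 10 than in all 3 lines, 1 differed between H9 and H1 day 0 and 0 between HUES8 and H9. With the ACTB ratio as a covariate, 1 was lower at day 8, 13 at day 10 and 6 than in all 3 lines, 0 were higher at days 4 and 8, and 1 differed between H9 and H1 day 0. Quantile normalization gave 2 higher at each of days 6, 7 and 8. With every probe set on its own, 1 was lower at day 5 and 1 at day 7, 2 were higher at each of days 4, 5, 6 and 8, and 1 was higher at day 9. With only the groups compared, 1 was lower at day 3 and 4 at day 8, 0 were higher on day 4, 2 on day 6 and 3 on day 8, and 3 differed between H9 and H1 day 0. Members lower at day 8 numbered 1 with no detection filter and 1 with the mean of probe sets, and 1 differed between H9 and H1 day 0 with that mean or with presence on at least 13 arrays.

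Leaving out 1 sample gave 13 to 21 members changed over the days, 1 to 2 with a rising line, and 0 to 1 lower on day 1, 0 to 2 on day 8, 3 to 8 on day 9 and 10 to 20 on day 10. It gave 0 to 1 higher at each of days 4, 6 and 8, 5 to 12 lower than in all 3 lines and 0 different between HUES8 and H9. No result reversed, and the median day 10 change was -0.86 to -0.59 without 1 sample. The signs of RFC5, LIG1, RRM1, PCNA, TYMS and CHAF1B, none called at day 10, were not the same in every setting. The causes were not tested, beyond the fewer samples of such fits.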
